A study of Mus musculus with 6 samples.

Results

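The sirtuin family, Sirt1 to Sirt7, was examined in thioglycollate-elicited peritoneal macrophages of WT and FOXO3 knockout (FOXO3 KO) mice. The 7 genes were matched by symbol among the 54648 gene symbols of the deposited count table. All 7 were in the table, and all 7 passed the filter on low counts that left 15608 genes for testing. RNA-seq had been carried out on 3 WT and 3 FOXO3 KO libraries of paired 76 bp reads from total RNA. WT and FOXO3 KO mice were homozygous littermates of strain C57BL/6, male and female, aged 6 to 8 weeks and fed standard chow. All had received thioglycollate, an irritant injected into the abdomen to recruit monocytes that become macrophages there. The knockout was not described as restricted to a cell type, and no sorting of the harvested cells was described. The labels number the libraries but do not say that each came from a separate mouse, so the p-values below measure the spread between these samples, which may be technical.

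Sirtuins are enzymes that remove acetyl and related acyl groups from lysines and consume NAD+ in the reaction, which ties their activity to the metabolic state of the cell. SIRT1, SIRT6 and SIRT7 are mainly nuclear, SIRT2 is mainly cytosolic, and SIRT3, SIRT4 and SIRT5 are mitochondrial. The family is linked to FoxO factors in both directions: SIRT1 and SIRT2 deacetylate FOXO3, and FOXO3 has been described as an inducer of Sirt1 transcription in starved cells. In macrophages, SIRT1 and SIRT2 are best known for deacetylating the p65 subunit of NF-kB. The comparison of genotypes addressed whether sirtuin mRNA levels differed between libraries labelled WT and libraries labelled FOXO3 KO. It is a comparison by label, since not every library labelled FOXO3 KO was low in Foxo3 mRNA, as given below.

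Because FOXO3 is a transcription factor, the annotated promoters of the 7 genes were read from RefSeq (GRCm38.p6), each a window of 250 bases before and 50 bases after a transcription start. RefSeq gave 9 windows for the 7 genes, with a pair each for Sirt3 and Sirt6. Those of 3 genes are shown to display the letters behind the motif counts: Sirt1, the gene tied to FoxO factors above, Sirt2, the most abundant member, and Sirt3, the member whose genotypes did not overlap. They lie at chr10:63338986-63339285 (minus strand), chr7:28766502-28766801 (plus strand) and chr7:140881820-140882119 (minus strand), and are printed along the strand of the gene. Capitals mark the E-box CACGTG and the GC box GGGCGG, searched on both strands with overlapping matches counted.
Sirt1: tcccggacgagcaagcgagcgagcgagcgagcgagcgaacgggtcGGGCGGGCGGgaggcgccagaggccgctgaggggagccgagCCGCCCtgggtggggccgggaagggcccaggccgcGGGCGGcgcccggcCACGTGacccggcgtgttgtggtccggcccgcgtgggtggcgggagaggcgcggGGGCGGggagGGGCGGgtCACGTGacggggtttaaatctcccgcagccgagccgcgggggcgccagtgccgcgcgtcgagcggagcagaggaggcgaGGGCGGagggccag
Sirt2: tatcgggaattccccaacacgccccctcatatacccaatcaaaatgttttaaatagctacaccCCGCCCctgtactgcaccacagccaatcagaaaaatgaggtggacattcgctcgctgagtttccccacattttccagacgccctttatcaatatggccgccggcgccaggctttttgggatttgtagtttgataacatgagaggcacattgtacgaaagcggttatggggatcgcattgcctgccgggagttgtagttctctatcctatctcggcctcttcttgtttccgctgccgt
Sirt3: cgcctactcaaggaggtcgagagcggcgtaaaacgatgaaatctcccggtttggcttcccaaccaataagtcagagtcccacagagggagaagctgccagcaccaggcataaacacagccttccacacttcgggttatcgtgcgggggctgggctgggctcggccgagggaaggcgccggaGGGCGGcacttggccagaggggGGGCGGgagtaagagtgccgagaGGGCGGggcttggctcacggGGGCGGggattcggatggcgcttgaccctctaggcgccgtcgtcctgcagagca
The FoxO core GTAAACA was in 0 of the 9 windows, against 3.65% of 32851 RefSeq promoters, and the related core GTAAATA was also in 0 of 9, against 3.04%. These counts say only that these exact letters are not in these windows, and variants of the cores were not searched. The E-box was in the Sirt1 window alone, as 2 matches, against 7.15% of all promoters. The GC box was in 6 of the 9 windows, with 7 matches in the Sirt1 window and 4 in the Sirt3 window shown, against 35.7% of all promoters. The Sirt1 window held 79.0% G and C, where the median promoter held 52.7%.

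Foxo3 mRNA was read first as a check of the labels. Levels are CPM, that is counts scaled to the same TMM-adjusted library size. Foxo3 was at 117, 107 and 73.1 CPM in WT 1, 2 and 3, at 4.71 and 4.29 CPM in FOXO3 KO 1 and 3, and at 104 CPM in the library labelled FOXO3 KO 2. The level in FOXO3 KO 2 lay within the WT range and went against its label, so the comparison of each sirtuin gene is given with and without it. By edgeR's quasi-likelihood test, the log2 fold change of Foxo3 (FOXO3 KO over WT) was -1.40 (SE 1.22, adjusted p = 0.859) over 6 libraries and -4.46 (SE 0.29, adjusted p = 0.105) without FOXO3 KO 2. Library totals were between 28083393 and 36424117 counts. WT 3 stood apart from the other libraries: it was the lowest of the 6 for 37.5% of genes tested and the highest for 37.2%. Its 8 B cell markers summed to 5638 CPM, where the other libraries had 295 to 1403 CPM. The 12 macrophage markers were above 0 in every library and summed to between 15110 and 19860 CPM, with the lowest sum in WT 3. Xist RNA, from the inactive X chromosome of females, was at 871 CPM in WT 3, at 1130 CPM in FOXO3 KO 3 and 0.07 to 0.18 CPM in the other 4 libraries.

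No sirtuin gene differed between the genotypes past the thresholds used. Of the 7 members, 0 passed an adjusted p (FDR) of 0.05 by edgeR's quasi-likelihood test over 6 libraries, which called 0 (0.0%) of the 15608 genes tested. At an unadjusted p of 0.05, 0 of 7 passed, where 5.68% of all genes tested did. A fold change over 1.5 in either direction was reached by 0 of 7 members and by 16.2% of genes tested. Without FOXO3 KO 2 the member counts were also 0 at the FDR, 0 at the unadjusted p and 0 at the fold, against 0.0%, 4.3% and 18.5% of 16217 genes tested. DESeq2 called 0 of 7, both at an adjusted and at an unadjusted p of 0.05. At the adjusted p it called 0.982% of genes over 6 libraries and 0.537% without FOXO3 KO 2. At the unadjusted p it called 1478 genes over 6 libraries and 957 without FOXO3 KO 2, where 17318 and 19931 genes had an adjusted p. With high or low Xist as a covariate and FOXO3 KO 2 left out, edgeR called 0 of 7 members and 0.105% of genes. The median log2 fold change of the members was -0.04 over 6 libraries, and that of all genes tested was -0.01. The median size of the change was 0.06 for the members and 0.18 for all genes tested. These sizes were 0.11 and 0.19 without FOXO3 KO 2, and 0.07 and 0.13 without WT 3.

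**Figure D1:**
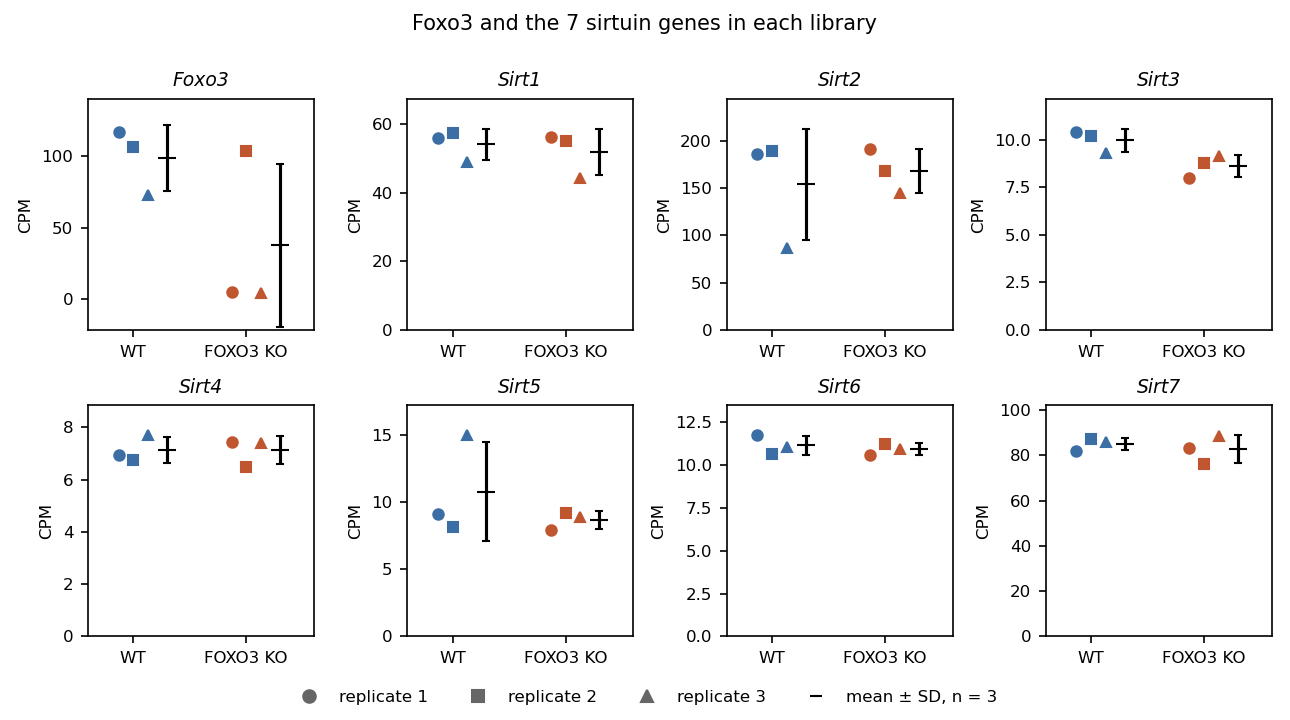
Expression (CPM, linear axes) of Foxo3 and the 7 sirtuin genes in 3 WT and 3 FOXO3 KO libraries, with 1 point per library and a bar for the mean ± SD of each group. Foxo3 is low in FOXO3 KO 1 and 3 only, the groups overlap for each sirtuin gene except Sirt3, and WT 3 (blue triangle) is the lowest point for Sirt2 (86.4 CPM) and the highest for Sirt5 (15.0 CPM).

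Among the nuclear members, Sirt1, which encodes the deacetylase of FoxO factors, p53 and NF-kB p65, was at 55.7, 57.3 and 48.9 CPM in WT 1, 2 and 3 and at 56.1, 55.1 and 44.1 CPM in FOXO3 KO 1, 2 and 3. The groups overlapped, and their means were 54.0 ± 4.48 and 51.8 ± 6.64 CPM (SD, n = 3 each). The log2 fold change was -0.06 (SE 0.13, adjusted p = 0.922), with a 95% interval from -0.37 to 0.25, and -0.11 (SE 0.16) without FOXO3 KO 2. The level in FOXO3 KO 2, the library labelled knockout that retained Foxo3 mRNA, was next to those in WT 1 and FOXO3 KO 1. The 2 lowest values of Sirt1 were those of the libraries with high Xist, WT 3 and FOXO3 KO 3, at 44.1 to 48.9 CPM, and the other 4 libraries had 55.1 to 57.3 CPM. This split was noticed after the values were seen and was not tested. Within it, FOXO3 KO minus WT on log2(CPM + 0.5) was -0.02 in the libraries with low Xist and -0.15 in the pair with high Xist. Without FOXO3 KO 2 the value for low Xist was -0.01.

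Sirt6, which encodes a chromatin-bound deacetylase known for restraining glycolytic genes, was at 11.7, 10.7 and 11.0 CPM in WT and at 10.6, 11.2 and 10.9 CPM in FOXO3 KO. It was the steadiest member: the coefficient of variation over 6 libraries was 3.74%, which is below the 5.39% that counting alone would give at 299 to 423 counts per library. The log2 fold change was -0.03 (SE 0.13, adjusted p = 0.967), with an interval from -0.33 to 0.28, and -0.05 without FOXO3 KO 2. Sirt7, which encodes the nucleolar sirtuin tied to ribosomal RNA synthesis, was at 82.1, 87.4 and 85.8 CPM in WT and at 83.2, 76.2 and 88.5 CPM in FOXO3 KO. Its lowest and its highest value were both FOXO3 KO libraries, so the groups overlapped fully. The log2 fold change was -0.04 (SE 0.10, adjusted p = 0.927) with the narrowest interval of the family, from -0.28 to 0.19, and 0.01 (SE 0.12) without FOXO3 KO 2.

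Sirt2, which encodes the mainly cytosolic sirtuin known as a tubulin deacetylase, had the widest range of the members. It was at 186, 190 and 86.4 CPM in WT and at 191, 168 and 145 CPM in FOXO3 KO. WT 3 alone was far below the others, and the remaining WT libraries lay inside the range of FOXO3 KO. The log2 fold change was 0.13 (SE 0.31, adjusted p = 0.932), with an interval from -0.63 to 0.88, and was 0.13 (SE 0.39) without FOXO3 KO 2. Without WT 3 it changed sign to -0.15 (SE 0.12, adjusted p = 0.840), with an interval from -0.45 to 0.15. As for Sirt1, the libraries with high Xist had the 2 lowest values, 86.4 and 145 CPM, against 168 to 191 CPM in the others. FOXO3 KO minus WT on log2(CPM + 0.5) was -0.07 among the libraries with low Xist and 0.74 in the pair with high Xist, of which WT 3 is a member. Without FOXO3 KO 2 the value for low Xist was 0.03.

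Of the mitochondrial members, Sirt3 was the one whose genotypes did not overlap. Sirt3 encodes the main deacetylase of the mitochondrial matrix. It was at 10.4, 10.2 and 9.28 CPM in WT 1, 2 and 3 and at 8.01, 8.76 and 9.14 CPM in FOXO3 KO 1, 2 and 3, that is 9.96 ± 0.59 against 8.64 ± 0.58 CPM (SD, n = 3 each). All 3 FOXO3 KO libraries were below all 3 WT libraries, as held for 1 of 7 members and for 5.36% of genes tested, whereas 0 of 7 members and 7.0% of genes had FOXO3 KO above WT in every library. The genotypes came closest in WT 3 (9.28 CPM) and FOXO3 KO 3 (9.14 CPM), which differed by less than the 5.9% spread of counting alone. A two-sided exact permutation test gave p = 0.10, the smallest that 3 against 3 allows. The log2 fold change was -0.20 (SE 0.14, unadjusted p = 0.20 and adjusted p = 0.844 by edgeR), with an interval from -0.55 to 0.14, so the difference was not past the threshold. The value of FOXO3 KO 2, which retained Foxo3 mRNA, lay between those of FOXO3 KO 1 and 3. Without it the log2 fold change was -0.21 (SE 0.18) and the groups still did not overlap, which without that library held for FOXO3 KO below WT in 9.23% of genes. The difference was -0.28 on log2(CPM + 0.5) among the libraries with low Xist and -0.02 in the pair with high Xist. Without FOXO3 KO 2 the value for low Xist was -0.34. The estimate stayed negative under each of the 19 alternatives, from -0.26 to -0.15, and its smallest unadjusted p was 0.109 by edgeR, without WT 3. The alternatives refit the same libraries, whose groups did not overlap. The sign could therefore hardly turn, and the alternatives add no separate evidence.

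Sirt4, which encodes a mitochondrial sirtuin known as an inhibitor of glutamate dehydrogenase, was the member with the fewest counts, 178 to 275 per library. It was at 6.92, 6.74 and 7.69 CPM in WT and at 7.44, 6.50 and 7.41 CPM in FOXO3 KO, with group means of 7.12 and 7.11 CPM. Its coefficient of variation of 6.53% was close to the 6.73% of counting alone. The interval of its log2 fold change ran from -0.39 to 0.39 (SE 0.16, adjusted p = 0.999), and the value was 0.06 (SE 0.19) without FOXO3 KO 2. Sirt5, which encodes the mitochondrial desuccinylase and demalonylase, was at 9.14, 8.15 and 15.0 CPM in WT and at 7.90, 9.16 and 8.90 CPM in FOXO3 KO. WT 3 was the highest of the 6, and the other 5 values lay between 7.90 and 9.16 CPM. The log2 fold change was -0.31 (SE 0.26, adjusted p = 0.856), with an interval from -0.94 to 0.32, and was -0.35 (SE 0.32) without FOXO3 KO 2. Without WT 3 it was 0.01 (SE 0.14, adjusted p = 0.993), with an interval from -0.34 to 0.36.

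**Figure D2:**
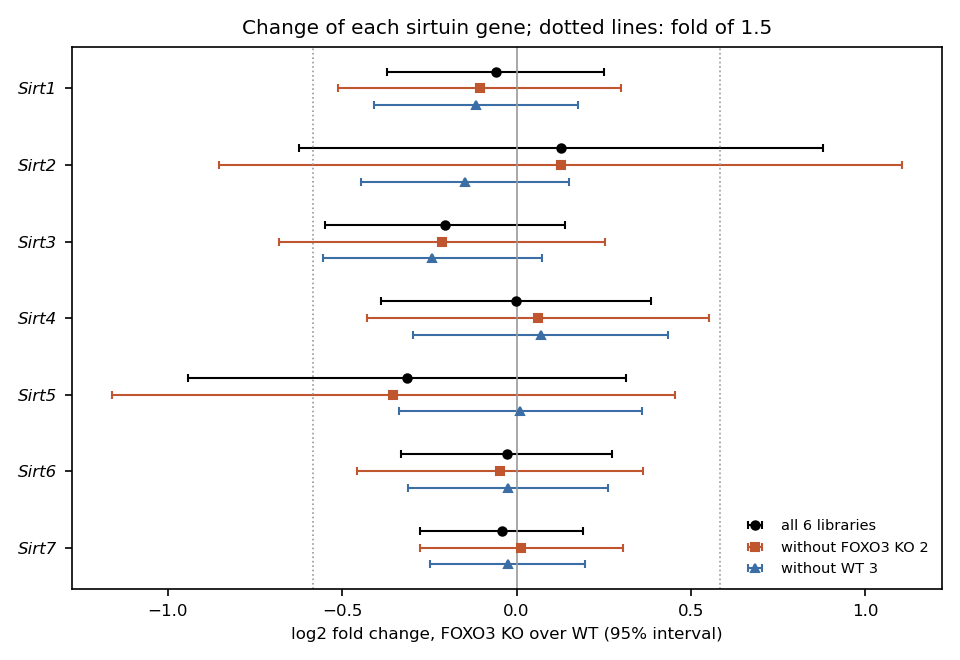
Log2 fold change of each sirtuin gene (FOXO3 KO over WT, horizontal axis) with its 95% interval from edgeR, over all 6 libraries (black), without FOXO3 KO 2 (red) and without WT 3 (blue); dotted lines mark a fold of 1.5 in either direction. Every interval spans 0, and the intervals of Sirt2 and Sirt5 shrink when WT 3 is left out.

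The intervals set what size of change these libraries could have missed. Over 6 libraries the 95% interval lay inside a fold of 1.5 in either direction for 5 of 7 members, Sirt1, Sirt3, Sirt4, Sirt6 and Sirt7. Without FOXO3 KO 2 it did so for 4 of 7, since the lower end for Sirt3 reached a fold of 0.624. For Sirt2 the interval over 6 libraries ran from a fold of 0.648 to 1.84, and for Sirt5 from 0.521 to 1.24. Without WT 3, but with FOXO3 KO 2 kept, all 7 intervals lay inside a fold of 1.5. With both libraries left out, the lower end for Sirt3 reached a fold of 0.637.

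The values that made Sirt2 and Sirt5 spread widest came from the library with the highest B cell, T cell and mast cell markers. Beside the B cell markers given above, the 9 T cell markers summed to 157 CPM in WT 3 and to 24.4 to 58.2 CPM in the others, and the 7 mast cell markers to 788 CPM against 101 to 297 CPM. The 6 NK cell markers were lowest in WT 3, at 27.7 CPM against 30.5 to 49.5 CPM. None of these B cell, T cell or mast cell markers was at 0 in any library. Their part in the values of Sirt2 and Sirt5 was not tested. In bulk RNA, fewer cells of a type and less RNA per cell cannot be told apart. FOXO3 KO 2 had the highest sum of mesothelial and fibroblast markers (517 CPM, against 44.7 to 183 CPM elsewhere), and the lowest values of Sirt4 (6.50 CPM) and Sirt7 (76.2 CPM). Any tie between these was not tested, and the spread of Sirt4 was close to that of counting alone.

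Levels of different sirtuin genes were compared per length, as CPM per kilobase of annotated exon (GENCODE M21). Sirt2 was the highest at 31.98 ± 8.06 CPM per kilobase (SD, n = 6), followed by Sirt7 at 16.3 ± 0.87 and Sirt1 at 9.92 ± 0.98. Sirt6 was at 3.96 ± 0.15, Sirt4 at 2.97 ± 0.19, Sirt5 at 1.59 ± 0.43 and Sirt3 at 1.56 ± 0.15 CPM per kilobase. The cytosolic member and the nucleolar and nuclear members Sirt7 and Sirt1 were thus higher per length than the mitochondrial members in every library. Each gene down to Sirt4 was above the next in 6 of 6 libraries. The ranges of neighbours did not overlap except for Sirt2 and Sirt7 and for Sirt5 and Sirt3. Sirt2 in WT 3 (17.15 CPM per kilobase) was as low as the highest Sirt7 value of 17.2. Sirt5 and Sirt3 could not be ordered, since Sirt5 was the higher in 2 of 6 libraries. With the longest or the mean transcript in place of all exons, ranks 1 to 4 were the same, but Sirt3, Sirt4 and Sirt5 changed places.

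**Figure D3:**
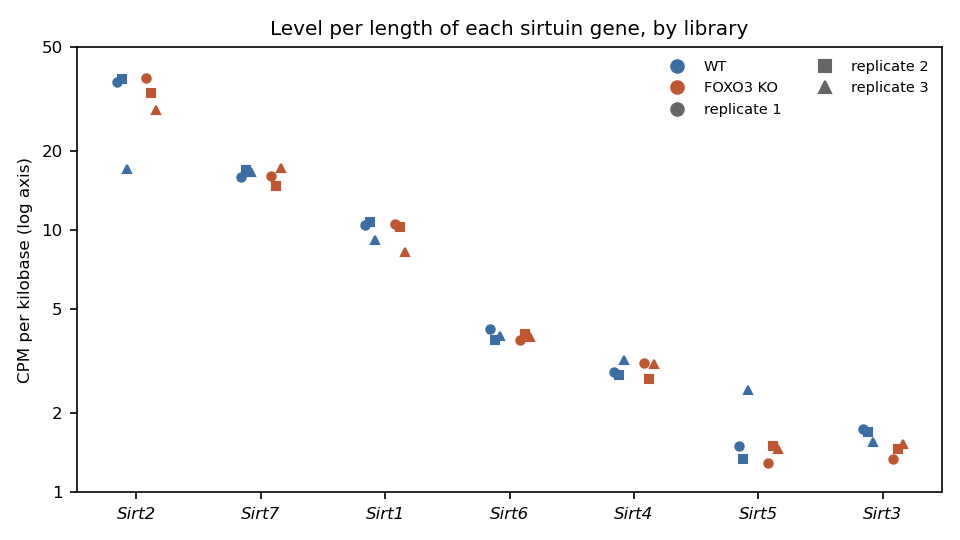
Level of each sirtuin gene per kilobase of annotated exon (CPM per kilobase, log axis) in each WT (blue) and FOXO3 KO (red) library, ordered by the mean. Sirt2, Sirt7 and Sirt1 lie at 8.27 CPM per kilobase or more and the mitochondrial members Sirt3, Sirt4 and Sirt5 at 3.21 or less, and the ranges of the genotypes overlap for each gene but Sirt3.

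Sirt2 held 44.8% to 51.2% of the family's summed level per length in the 5 libraries other than WT 3, and 31.7% in WT 3. The summed CPM of the 7 genes was 362, 370 and 264 in WT and 364.5, 335 and 314 in FOXO3 KO. These sums overlapped, at 332 ± 59.0 and 338 ± 25.4 CPM (SD, n = 3 each, two-sided exact permutation p = 0.90). Without FOXO3 KO 2, FOXO3 KO was at 339 ± 35.7 CPM (SD, n = 2, exact permutation p = 1.0).

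Expression of the members was next set beside that of their annotated neighbours on GRCm38, since overlapping genes can share reads and strand use in the counting is not given in the sources used here. Sirt3 (chr7:140863666-140882309, minus strand) overlaps at its start with Psmd13, a proteasome subunit gene on the other strand. Psmd13 was at 86.0, 105 and 61.5 CPM in WT and 95, 82.2 and 75.8 CPM in FOXO3 KO, with a log2 fold change of 0.01 (SE 0.21). Its groups overlapped, unlike those of Sirt3. At its other end Sirt3 overlaps with Ric8a, a G protein regulator gene on the opposite strand, at 94.6, 105 and 93.0 CPM in WT and 90.7, 87.7 and 90.6 CPM in FOXO3 KO. As for Sirt3, all FOXO3 KO values of Ric8a were below WT, with a log2 fold change of -0.12 (SE 0.09, adjusted p = 0.852). The same held for Gm15542, a processed pseudogene that starts within 10 kb of Sirt3, at 6.12 to 6.56 CPM in WT and 4.93 to 5.37 CPM in FOXO3 KO (log2 fold change -0.31, adjusted p = 0.839). Gm15542 does not overlap Sirt3 and lies within the span of Psmd13, on the same strand as Psmd13. Whether Psmd13 or Ric8a share reads with Sirt3, or Gm15542 with Psmd13, was not tested. Sirt7 (chr11:120618372-120625240, minus strand) overlaps on the same strand with Mafg, which encodes a small MAF factor. Mafg was at 83.5, 91.3 and 68.6 CPM in WT and 104, 102 and 102 CPM in FOXO3 KO. All FOXO3 KO libraries, FOXO3 KO 2 included, were thus above WT for Mafg, as for 7.0% of genes tested. Its log2 fold change was 0.34 (SE 0.13, unadjusted p = 0.033, adjusted p = 0.839 by edgeR), which did not pass the FDR, and 0.35 (unadjusted p = 0.083) without FOXO3 KO 2. Sirt7 itself had -0.04. Sirt2 (chr7:28766735-28788661, plus strand) overlaps with Nfkbib, an inhibitor of NF-kB on the other strand, whose log2 fold change was 0.02. The antisense gene Gm16145 within the GENCODE span of Sirt1 and the miRNA gene Mir6936 within that of Sirt7 had 0 counts in all 6 libraries. The RefSeq promoter window of Sirt1 shown above lies inside the GENCODE span of Sirt1, since RefSeq and GENCODE place its start differently. Sirt1 (chr10:63319005-63381704, minus strand), Sirt6 (chr10:81621785-81627797, minus strand) and Foxo3 (chr10:42181841-42276755, minus strand) are on the same chromosome.

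The genes whose pattern over the 6 libraries was most like that of each member were sought among 9287 genes of at least 10 CPM, by Pearson's r of log2(CPM + 0.5). This is a description over 6 points that share the library-wide shifts of WT 3. The best of 9287 genes over 6 points also reach a high r by selection. For Sirt4 and Sirt6, the spread to be matched was no larger than that of counting alone. For Sirt1 they were Iars2 (r = 0.994), the Y-linked gene Uty (r = 0.983) and Spty2d1 (r = 0.981). Uty was at 39.1 to 41.4 CPM in the 4 libraries with low Xist, at 0.87 CPM in FOXO3 KO 3 and at 9.17 CPM in WT 3, so WT 3 held RNA of both Xist and a Y-linked gene. For Sirt2 they were BC005537, Usf2 and 2010111I01Rik (r of 0.998 to 0.999). For Sirt5 they were Copg1, Mta3 and Nt5e (r of 0.998 to 0.999), and Nt5e was at 88.6 CPM in WT 3 and at 2.73 to 7.70 CPM elsewhere. For Sirt3 they were Maml1 (r = 0.969), Susd3 (r = 0.963) and Ppil2 (r = 0.962). The same search gave Snrpa, Plod3 and Mfsd10 for Sirt4, Cdk16 and Frs2 for Sirt6, and Atg16l1, Pygo2 and Was for Sirt7.

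Genes around the sirtuins were read as 9 lists of 126 genes in all. Over 6 libraries edgeR's quasi-likelihood test called 0 of the 115 tested at the FDR and 4 (3.48%) at the unadjusted p, which is below the 5.68% of all genes tested. Of the other tools, limma-voom and the likelihood ratio test called 0 at the FDR, and DESeq2 called 1 of 119 (0.84%, against 0.982% of all genes), Hic1. Without FOXO3 KO 2 the quasi-likelihood test called 0 of 117 at the FDR and 4 (3.42%, against 4.3% of all genes) at the unadjusted p. In other settings the share of listed genes at the unadjusted p lay on either side of that of all genes. Without WT 3 it was 11 of 116 (9.48%), against 1327 of all 15788 genes tested. With the Xist covariate over 6 libraries it was 14 of 115 (12.2%), against 1606 of 15608. Without FOXO3 KO 1 it was 1 of 118 (0.847%), against 700 of 16315. These differences rest on few listed genes and were not tested. Of the enzymes that make NAD+, the sirtuin cosubstrate, with the NAD kinases that convert it to NADP+, 14 were tested, 7 had higher and 7 lower values in FOXO3 KO, and 0 passed an unadjusted p of 0.05. Nampt, the rate-limiting enzyme of NAD+ salvage, was at 202, 228 and 112 CPM in WT and at 208, 263 and 184 CPM in FOXO3 KO (log2 fold change 0.27, adjusted p = 0.872). Its groups overlapped, and the value was 0.12 without FOXO3 KO 2 and 0.03 without WT 3. Haao and Kynu, enzymes of NAD+ synthesis from tryptophan, had -1.30 and -1.76 over 6 libraries and -0.16 and -0.44 without WT 3. Of 17 tested genes whose products consume NAD+ or its precursor, 7 had higher and 10 lower values, and 0 passed the unadjusted p. Without WT 3, 2 of 17 passed it, both with higher values in FOXO3 KO, beside 1327 of all 15788 genes. Cd38, an NAD+ glycohydrolase, was at 254 CPM in WT 3, and its log2 fold change of -0.64 became 0.67 without that library. Parp1, the main poly(ADP-ribose) polymerase, had -0.38 and all FOXO3 KO values below WT, as in 5.36% of all genes tested. Without WT 3, where it was at 201 CPM against 126 and 123 CPM in WT 1 and 2, Parp1 had -0.095. Nnmt, which methylates nicotinamide, had 1.12 at 0.50 to 3.32 CPM, and 0.77 without WT 3.

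Of 13 tested regulators of SIRT1, 1 passed the unadjusted p. Hic1, a repressor of Sirt1 transcription, was at 0.94, 0.81 and 0.70 CPM in WT and at 1.35, 2.88 and 2.52 CPM in FOXO3 KO. The groups did not overlap, with the highest value in FOXO3 KO 2, and 7.0% of all genes tested likewise had every FOXO3 KO library above WT. The log2 fold change of Hic1 was 1.46 (SE 0.36, unadjusted p = 0.0064 and adjusted p = 0.714 by edgeR). DESeq2 gave an adjusted p of 0.0498 over 6 libraries and of 0.577 without FOXO3 KO 2. The mesothelial and fibroblast markers, which summed to 517 CPM in FOXO3 KO 2, to 183 CPM in FOXO3 KO 3 and to 44.7 to 103 CPM elsewhere, were also highest in the 2 libraries with the most Hic1 and Nnmt, and their part in these values was not tested. Sirt1, in the same libraries, did not differ past its spread. Ccar2, which encodes an inhibitor of SIRT1, had a log2 fold change of -0.15, and E2f1, an inducer of Sirt1, had 0.50. Without WT 3 these values were -0.0045 and 0.25. Neither passed the unadjusted p.

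The lists of sirtuin substrates held 24 tested nuclear and cytosolic and 17 tested mitochondrial proteins, with median log2 fold changes of -0.11 and 0.02. Without WT 3 the medians were -0.017 and -0.022, the second with its sign turned, and without FOXO3 KO 2 they were -0.095 and 0.012. Hif1a, the hypoxia factor that SIRT1 and SIRT6 restrain, was at 157, 174 and 155 CPM in WT and at 201, 197 and 215 CPM in FOXO3 KO (log2 fold change 0.33, unadjusted p = 0.017, adjusted p = 0.748). Sod2, the mitochondrial superoxide dismutase that SIRT3 deacetylates and a classical FoxO target, was at 74.1, 87.3 and 73.8 CPM in WT and at 98.7, 96.7 and 97.9 CPM in FOXO3 KO (log2 fold change 0.32, unadjusted p = 0.020, adjusted p = 0.765). For both genes all FOXO3 KO libraries were above all WT libraries, as held for 7.0% of all genes tested. FOXO3 KO 2, which kept Foxo3 mRNA, was near the level of FOXO3 KO 1 and 3 for both. Without FOXO3 KO 2, Hif1a had 0.36 (unadjusted p = 0.045) and Sod2 had 0.33 (unadjusted p = 0.059). Acss1, the mitochondrial acetyl-CoA synthetase activated by SIRT3, had -0.39 over 6 libraries and -0.12 without WT 3. Of the FoxO genes, Foxo4 was at 35.3, 36.2 and 32.01 CPM in WT and 24.9, 30.2 and 23.4 CPM in FOXO3 KO, with a log2 fold change of -0.40 (unadjusted p = 0.020, adjusted p = 0.765). Its 2 lowest values were those of the 2 libraries low in Foxo3, and without FOXO3 KO 2 the value was -0.51 (unadjusted p = 0.0095). The same 2 libraries had the highest sums of neutrophil markers (467 and 387 CPM, against 126 to 195 CPM) and of red blood cell markers (117 and 182 CPM, against 9.23 to 27.0 CPM), and the part of these cells in the values of Foxo4 was not tested. Foxo1 had -0.76 over 6 libraries and -0.07 without WT 3, where it was at 96.0 CPM.

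Of 9 tested glycolytic genes restrained by SIRT6, 8 had higher values in FOXO3 KO and 0 passed the unadjusted p. Their log2 fold changes had a median of 0.18 over 6 libraries and of 0.08 without WT 3. The sum of the list was 1381 CPM in WT 3 and 2231 to 2874 CPM in the other libraries. Slc2a1, the glucose transporter, had 0.37 and Tpi1, a glycolytic enzyme, had 0.29. Without WT 3 these values were 0.13 and -0.022. The 11 zinc-dependent deacetylases, which act on many of the same lysines without NAD+, had 2 higher and 9 lower values and a median of -0.10, or -0.046 without WT 3. Hdac3 was at 44.1 to 51.1 CPM in all libraries (log2 fold change -0.03), and Hdac7 (-0.80) and Hdac10 (-0.69) were highest in WT 3 and had -0.21 and -0.18 without it. The 11 lysine acetyltransferases, which add the groups that sirtuins remove, had 4 higher and 7 lower values and a median of -0.06, or -0.022 without WT 3. Among them Kat8 had -0.29 with all FOXO3 KO values below WT, as in 5.36% of all genes tested, and Kat5 had 0.19. Neither passed the unadjusted p.

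**Figure D4:**
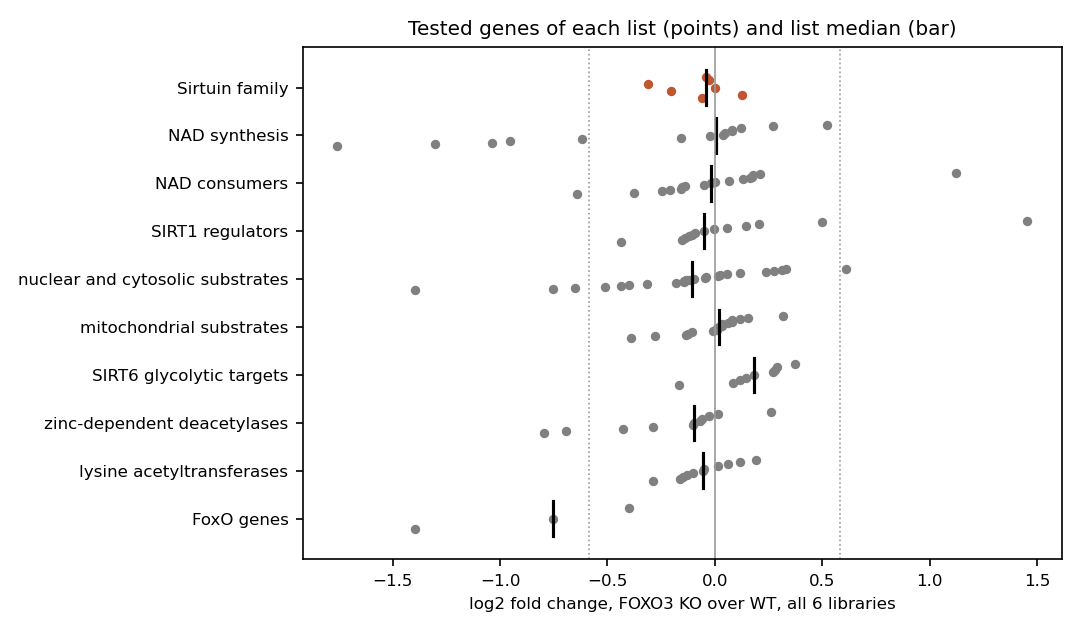
Log2 fold change (FOXO3 KO over WT, all 6 libraries, horizontal axis) of each tested gene of the sirtuin family (red points) and of 9 related lists (grey points), with a black bar at each list's median and dotted lines at a fold of 1.5. The sirtuin values lie between -0.31 and 0.13, inside the dotted lines. The 5 NAD+ synthesis genes beyond the lines all had values inside them without WT 3. Ido1 of the same list, at only 0.28 to 0.69 CPM, went from 0.52 to 0.64 without WT 3, beyond the lines.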

How the data were processed

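Gene expression in 3 WT and 3 FOXO3 KO libraries was taken from the table of estimated counts that the authors deposited without normalization. The submitters' processing notes name STAR 2.6.1d, kallisto 0.46.0, DESeq2 and mm10, without roles. The sources used here do not give the annotation or the use of strand. Within a tolerance of 0.01, 81.4% of the deposited values were whole, and each value was rounded. All genes were fitted in edgeR 4.0.16 (R 4.3.3) with filterByExpr, TMM and the quasi-likelihood test with Benjamini-Hochberg adjustment, which was tested on simulated data. Thresholds were an FDR of 0.05, an unadjusted p of 0.05 and a fold of 1.5. Single values were compared by the exact permutation test on log2(CPM + 0.5). Alternatives used DESeq2 1.42.0, limma 3.58.1, other scaling, filters and samples. Lengths, positions and neighbours came from GENCODE M21 on GRCm38, which is mm10 and holds 99.0% of the symbols. The members, lists, alternatives and tests were chosen with earlier results of these data known. Named genes were the members, Foxo3, genes that overlap a member or start within 10 kb of it (the text gives those that overlap, and Gm15542), the 3 genes most like each member (1 is not reported here), and from each list those past the unadjusted p, the 2 of largest change with a mean of at least 1 CPM, and Nampt, Cd38, Parp1, Ccar2 and Hdac3.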

Additional observations from a re-analysis of the deposited data

How the results depend on the processing

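The counts of members past the FDR and past the unadjusted p were 0 under all 19 alternatives, and the smallest adjusted p of any member was 0.450, for Sirt5. At the FDR this says little, since most alternatives called 0 of all genes tested. Over 6 libraries only the likelihood ratio test (109 genes) and DESeq2 (170) called any. Without FOXO3 KO 2, DESeq2 called 107, the Xist covariate gave 17, and leaving out WT 3 as well gave 4. At the unadjusted p, the smallest share of all genes was 583 of 15795, without FOXO3 KO 3. The largest was 2356 of 16217, without FOXO3 KO 2 and with the Xist covariate. Signs of the small log2 fold changes were not stable. With 1 library (or FOXO3 KO 2 and WT 3 together) left out, they ranged from -0.17 to 0.044 for Sirt1, from -0.16 to 0.31 for Sirt2, from -0.035 to 0.12 for Sirt4, from -0.47 to 0.011 for Sirt5, from -0.056 to 0.0053 for Sirt6 and from -0.094 to 0.020 for Sirt7. Sirt4, at -0.0008 over 6 libraries, had 0.0038 with DESeq2, 0.016 with no filter and 0.0007 with the Xist covariate. Without FOXO3 KO 2, it had 0.049 with the Xist covariate and 0.069 with DESeq2, and Sirt7 had 0.0065 and 0.021. Foxo3 ranged from -4.64 to -0.87 with libraries left out, and passed the FDR without FOXO3 KO 2 when DESeq2 was used (-4.46), when the Xist covariate was added (-4.35) and when WT 3 was left out as well. The replicate block gave 0 members past the FDR, Foxo3 at -3.06 (adjusted p = 0.729), and 1033 genes at the unadjusted p against 887 without it. Same-numbered libraries did not deviate together throughout (correlations of 0.34, -0.06 and 0.57, and WT 2 correlated best with FOXO3 KO 1, at 0.61), so the numbers were not taken to pair the samples, and the block changed no call at the FDR. At the unadjusted p, the block moved Foxo3 from 0.294 to 0.038 by the quasi-likelihood test. It moved the count of listed genes from 4 to 9 of 115, beside 887 and 1033 of all 15608 genes tested. In all genes tested over 6 libraries, the quasi-likelihood test and limma-voom called 0, the likelihood ratio test 109 and DESeq2 170. At 178 to 535 counts per library, counting alone gave Sirt3 to Sirt6 a spread of 5.39% to 6.73%, which limits what can be detected.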
